A study of Mus musculus with 33 samples.

Results

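Cardiomyocytes of mice lacking Ptpmt1 were compared with and without an added mutation of Eif2a, gene by gene, to show which expression differences depend on Eif2a once Ptpmt1 is lost. The comparison rests on 3 libraries with the cardiomyocyte-specific Ptpmt1 knockout alone (Ptpmt1 knockout) and 3 with that knockout and the Eif2a mutation (double), 6 of the 33 samples of the series. Ptpmt1 is a mitochondrial phosphatase whose product, phosphatidylglycerol, is the precursor of cardiolipin, the lipid that marks the inner membrane. Of the 4 groups of 3 libraries in the line, named FST in the sample titles, the others were controls and mice with the Eif2a mutation only. By Eif2a the labels mean eIF2 alpha, a subunit of a translation initiation factor, and its gene carries the symbol Eif2s1, while a different factor has the symbol Eif2a. The sources used here do not say what the mutation changes, whether the mutation was limited to cardiomyocytes, what drove the Ptpmt1 deletion, which alleles the controls also carried or how old the mice were. The titles give every library a number of its own, and whether each is 1 animal is not stated, so p-values measure the spread between these samples.

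The integrated stress response (ISR) starts when a kinase phosphorylates the alpha subunit of eIF2. General translation then slows, while the transcription factor Atf4 is made in larger amounts and switches on genes for amino acid synthesis, amino acid uptake and the loading of transfer RNA (tRNA). In heart muscle this programme is known from mitochondrial disease, where faults inside the organelle reach eIF2 through the kinase Hri.

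RNA, given by the labels as nuclear RNA, was sequenced after removal of ribosomal RNA, and values are normalized counts, that is reads in a gene divided by a factor for the depth of the library. Reads in genes ranged from 1887978 to 12583868 over the 6 libraries. Double replicate 2 was the shallow one, with 15336 genes with reads against at least 17567 in the other 5, and 1 read in it is worth 4.42 normalized counts. Its median correlation with the other libraries of the table was 0.954, and Eif2a mutant replicate 1 stood apart too, at 0.945 against at least 0.970 elsewhere. All 3 Ptpmt1 knockout libraries and 2 of the 3 doubles had the male expression pattern, while double 1 had the female one. In the other groups of the line, all 3 Eif2a mutants but only 1 of the 3 controls had the male pattern. The cells carried the cardiomyocyte markers, which took 5.64% to 7.30% of normalized counts in the Ptpmt1 knockout and 5.98% to 7.63% in the double. Lymphocyte and adipocyte markers were at or near 0 in every library. The targeted gene Ptpmt1 (chr2:90908716-90918258, GRCm38) was at 40.6, 31.3 and 34.7 in the knockout and 46.7, 39.8 and 49.2 in the double, against 158, 156 and 175 in controls. Both groups were thus low in all 3 libraries, and the difference between them, 0.34 ± 0.17 on the log2 scale, did not pass the test (limma's adjusted p = 0.396). A point mutation would not be seen in values per gene. Eif2s1 itself stood at 799.5, 953 and 682 in the knockout and 838, 928 and 779.8 in the double (0.07 ± 0.15, adjusted p = 0.861), so its label rests on the titles.

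With the Eif2a mutation added, a set of stress response genes was lower, Asns, Mthfd2 and Phgdh among them at about the level of the controls, and a second set, with 6 glycolytic enzymes in it, was higher. Of 13896 genes tested, 122 (0.878%) passed a limma test at an adjusted p under 0.05, with 62 higher in the double (0.446%) and 60 lower (0.432%). Of the 60 falls, 4 (Chac1, Cntnap3, Cyb5r2 and Trim66) reached the filter of 10 normalized counts in 3 libraries only through the knockouts and so had to differ. The falls were the larger changes, with a median of -0.82 on the log2 scale against 0.58 for the rises. For every called gene the 3 doubles lay on one side of the 3 knockouts. Over all genes tested, the double lay above the knockout in every library for 8.95% and below it for 8.87%, so such a gap is common. The median difference over all genes was -0.0049, and here and below a difference is double minus Ptpmt1 knockout in log2(normalized count + 1), ± its standard error. Without the shallow double 2 the calls numbered 49, of which 44 were among the 122, and all 122 kept their sign. The number also depended on other libraries, with 327 calls without Ptpmt1 knockout 3, 55 without double 1, 52 without Ptpmt1 knockout 1 and 29 without double 3.

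**Figure D1:**
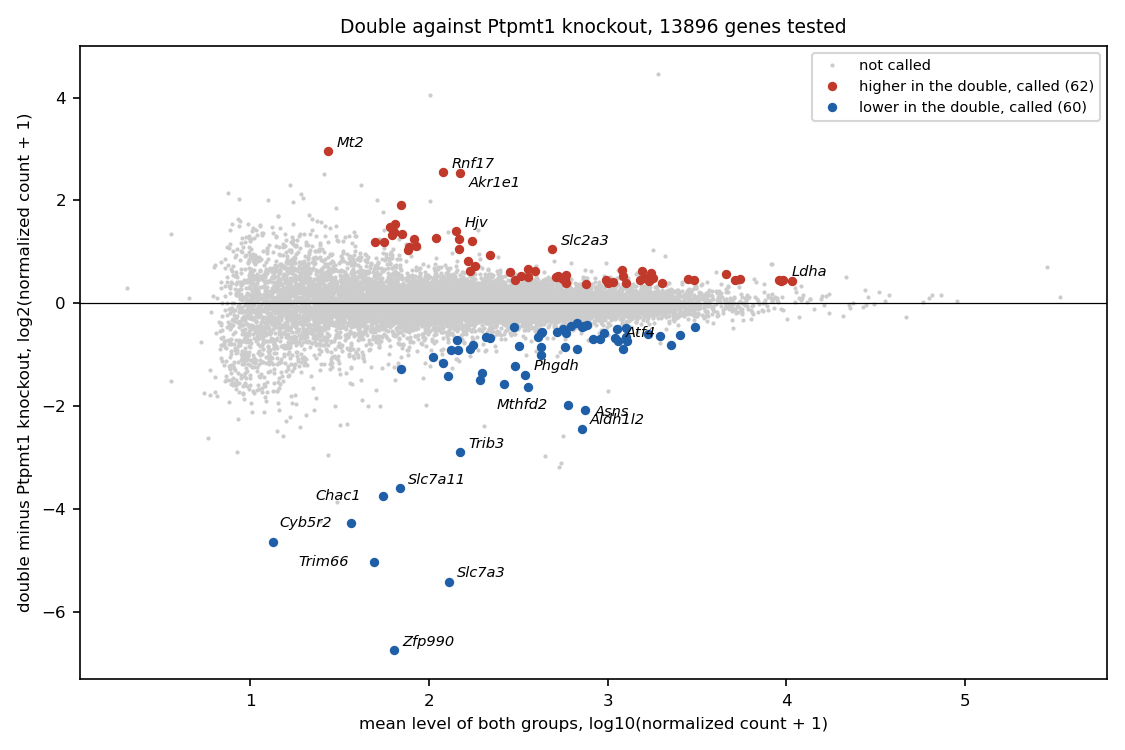
Each point is 1 of the 13896 genes tested. The horizontal axis gives the mean level of the 6 libraries as log10(normalized count + 1) and the vertical axis the double minus the Ptpmt1 knockout in log2(normalized count + 1). The 60 called falls reach -6.75 (Zfp990) and the 62 called rises 2.95 (Mt2), with the ISR genes Asns and Mthfd2 near -2 at high levels.

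The regulators of the ISR fell in part. Of 16 tested members of the list of ISR transcription factors and regulators, 5 fell and none rose, and the median difference was -0.66. An unadjusted p under 0.05 was found for 11, against 13.8% of all genes tested. Chac1, among the 5 and the 11, reached the filter only through the knockouts and so had to differ. The 5 became 1 without double 1 or without double 3, 3 without double 2 or any 1 knockout, and 2 with a term for the male or female pattern. Atf4 (chr15:80255184-80257541), the central transcription factor of the response, was at 1216, 1285 and 1809 in the knockout and 773, 989.99 and 786 in the double. Its doubles lay above the controls (708, 728 and 727), double 2 by the most, and all below the knockouts, a difference of -0.74 ± 0.13 (adjusted p = 0.0125). Atf5, a related factor that acts in the mitochondrial stress response, went from 260.1, 234 and 724 to 127, 110.5 and 117, a difference of -1.58 ± 0.31 (adjusted p = 0.026). Ptpmt1 knockout 3 was far above its group here, and the groups did not overlap. Atf3, a stress-induced member of the same family, was at 120.1, 127 and 181 in the knockout and 74.7, 66.3 and 60.9 in the double (-1.05 ± 0.22, adjusted p = 0.0332). Unlike Atf4 and Atf5 it was not high in the knockout, since controls stood at 149.7, 157 and 97, and the doubles had the lowest mean of the 4 groups. Without double 2 the adjusted p of Atf5 became 0.109 and that of Atf3 0.108.

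Trib3, a pseudokinase that restrains growth signalling and Atf4 itself, had normalized counts of 181, 160.1 and 457 in the knockout and 33.5, 26.5 and 32.8 in the double. All doubles were several times below all knockouts, by -2.91 ± 0.34 (adjusted p = 0.000775), yet above the controls at 14.8, 15 and 13.2. The mice with the Eif2a mutation alone had 69.8, 39.1 and 45.1, which is higher than in any double. Chac1, an enzyme that breaks down glutathione, was at 67.6, 76.7 and 158 in the knockout and 6.23, 13.3 and 2.34 in the double, with controls at 2.94 to 4.16 and a difference of -3.76 ± 0.73, given here as a description. The value of double 2 rests on 3 reads. Ddit3, which encodes the factor Chop, had 108, 157 and 204 against 63, 61.9 and 114, and its groups overlapped (-0.98 ± 0.40, adjusted p = 0.289). Sesn2, a brake on the growth kinase mTORC1, showed 226, 232 and 359.6 against 178, 102 and 156 without overlap, but its difference of -0.91 ± 0.25 did not pass the test (adjusted p = 0.102). Ddit4, another brake on that kinase, was at 91.5 to 189.9 and 88.4 to 168. The secreted signal Gdf15 stayed under the filter, with its highest value, 44.8, in Ptpmt1 knockout 3 and at most 4.42 in the doubles, and Fgf21 was at 0 reads in all 12 libraries.

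Some enzymes that make serine, asparagine, alanine and proline and that feed the mitochondrial folate cycle fell as well. In the list of serine, glycine and one-carbon synthesis, which also holds these amino acid enzymes, 8 of 20 tested members fell, none rose, and the median was -0.66. Asns (chr6:7675169-7693254), asparagine synthetase, was at 976, 1187 and 1452 in the knockout and 300.4, 283 and 263 in the double. The doubles lay in a narrow band barely above the controls (211, 224 and 259.5), with 282 ± 18.5 (SD, n = 3) against 1205 ± 238 in the knockout. The difference of -2.07 ± 0.15 had the smallest adjusted p of all genes (9.99e-06). Mthfd2 (chr6:83305691-83325908), a dehydrogenase of the mitochondrial folate cycle, went from 783, 813 and 1275 to 235, 269.6 and 204, by -1.99 ± 0.17 (adjusted p = 5.03e-05), and controls stood at 229, 245 and 287. Aldh1l2, which releases carbon dioxide and NADPH from folate in mitochondria, was at 1089.9, 793 and 1755 in the knockout and 272, 155 and 224 in the double (-2.44 ± 0.28, adjusted p = 0.000747). Here 2 of the 3 doubles lay below every control (541, 535 and 271).

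Phgdh, the first enzyme of serine synthesis, had 391, 412 and 715 in the knockout and 199, 186 and 172 in the double, with controls at 169, 175 and 247, so the doubles sat within the range of the controls. Its difference was -1.39 ± 0.21 (adjusted p = 0.00549). Psat1, which catalyses the next step, fell by less (-0.89 ± 0.15, adjusted p = 0.00887), from 709 to 1097 to 424 to 499. Psph, the last enzyme of that pathway, pointed the same way without passing the test (-0.61 ± 0.21, adjusted p = 0.203). Shmt2, which passes carbon from serine to folate, was at 658, 598 and 1168 and 616, 614 and 588 (-0.35 ± 0.17, adjusted p = 0.395), and its groups overlapped. Gpt2, the mitochondrial alanine aminotransferase, fell by -1.50 ± 0.22 (written as double minus knockout, adjusted p = 0.00526). Pck2, the mitochondrial phosphoenolpyruvate carboxykinase, changed by -1.01 ± 0.14 (adjusted p = 0.00379), and Aldh18a1, the first enzyme of proline synthesis, by -0.70 ± 0.11 (adjusted p = 0.00887).

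**Figure D2:**
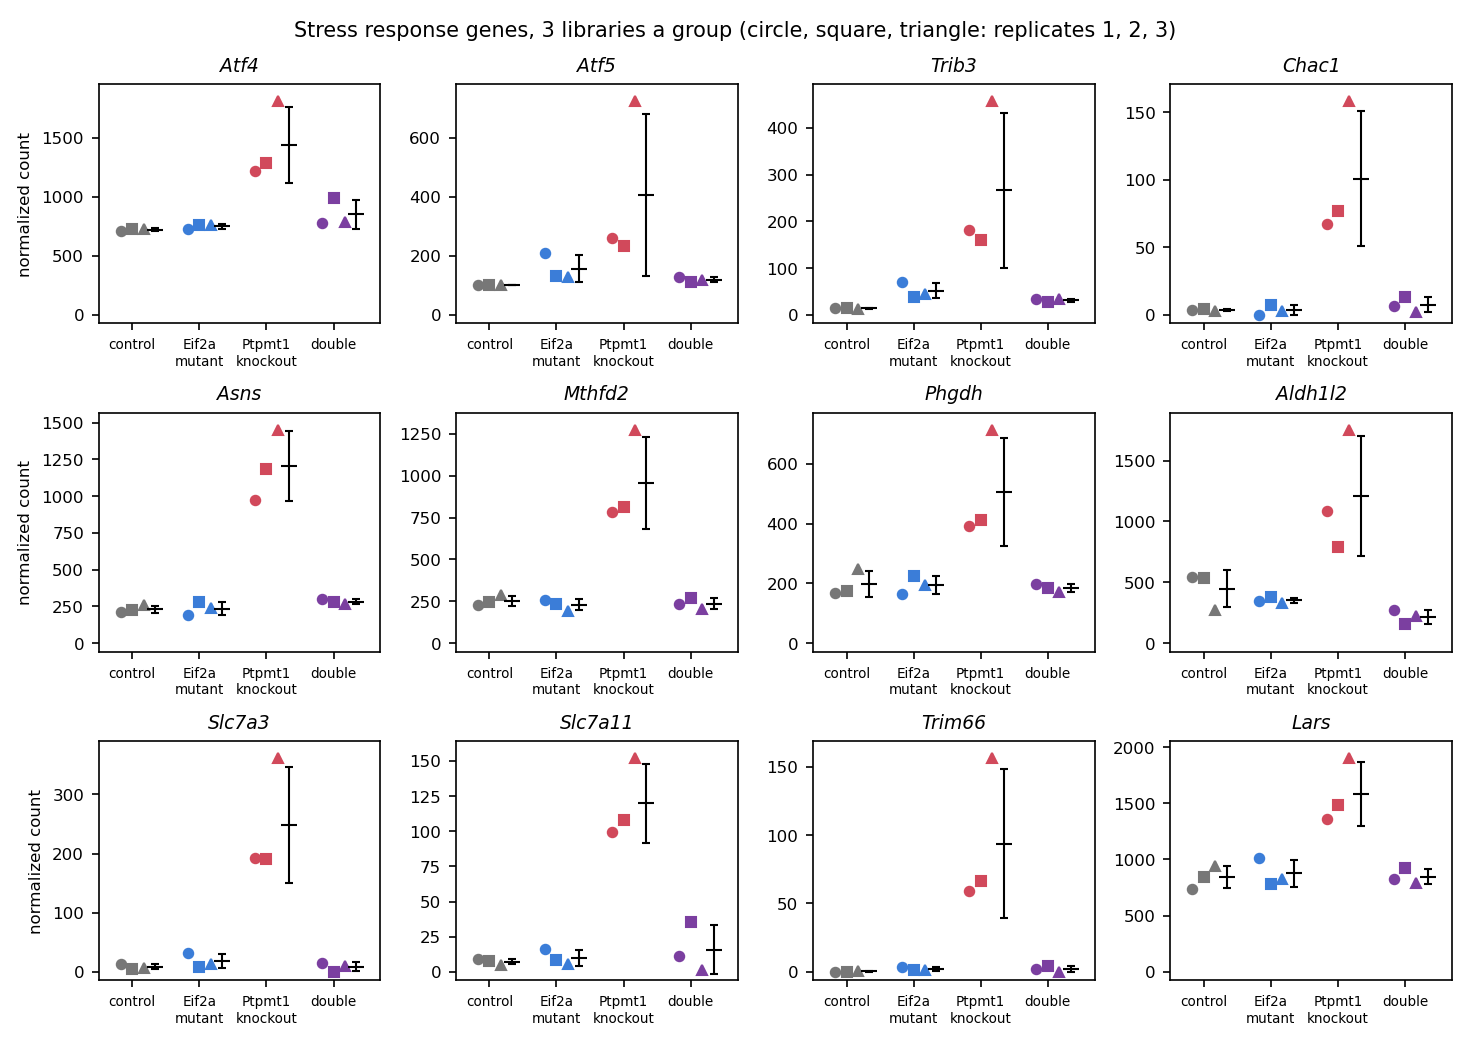
Normalized counts (vertical axes, from 0) of 12 genes in the 12 FST libraries, with circles, squares and triangles for replicates 1, 2 and 3 and bars for the group mean ± SD (n = 3). In every panel the 3 Ptpmt1 knockout libraries lie above the 3 doubles, as for every called fall, and Ptpmt1 knockout 3 is the highest library. Chac1 and Trim66 reached the filter only through the knockouts. For Asns the doubles, at 263 to 300.4, stand next to the controls at 211 to 259.5.

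Plasma membrane carriers for amino acids divided. Of 16 tested, 4 fell, none rose, and the median was -0.38. The 4 became 1 without double 1 or without double 3, and 2 without Ptpmt1 knockout 1 or with the term for the male or female pattern. Slc7a3 (chrX:101079210-101086020), a carrier of cationic amino acids, was at 192, 190.4 and 362 in the knockout and 15.6, 0 and 9.37 in the double (-5.42 ± 0.79, adjusted p = 0.00531). Slc7a11, the cystine carrier that supplies glutathione synthesis, was at 99.4, 108 and 152 and 10.9, 35.4 and 1.17 (-3.60 ± 0.73, adjusted p = 0.0302), where the value of double 2 is 8 reads. Both were low in controls (4.99 to 13.2 and 5.15 to 9.05). The doubles of Slc7a3 were back near that level, while those of Slc7a11 scattered from below to above it, with double 2 the highest. Slc1a4, a carrier of serine and alanine, fell by a difference of -1.36 ± 0.23 (adjusted p = 0.01) and Slc6a9, a glycine carrier, by one of -1.41 ± 0.29 (adjusted p = 0.0302). The large neutral amino acid carrier Slc7a5 had 566, 457 and 1117 against 303, 376 and 299, a gap without overlap that did not pass limma's test (-1.03 ± 0.23, adjusted p = 0.0545) but was called in 7 of 18 alternatives, edgeR among them (adjusted p = 0.0339). Its partner chain Slc3a2 did not pass either (-0.70 ± 0.18, adjusted p = 0.074) and was called in 4 of the 18.

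Of 20 tested enzymes that load amino acids onto tRNA in the cytosol, 8 fell (Aars, Cars, Eprs, Gars, Iars, Lars, Nars and Sars), none rose, and the median was -0.43. The 8 became 3 without double 3. Of 17 mitochondrial ones none passed limma's test, 1 had an unadjusted p under 0.05, 1 passed edgeR, and the median was 0.02, and the contrast between both families was not itself tested. Lars, the leucine enzyme, was at 1359.5, 1488 and 1903 in the knockout and 826, 924 and 792 in the double, against 739.7, 848 and 940.3 in controls. The knockouts were thus the high group, and the difference was -0.89 ± 0.13 (adjusted p = 0.00532). The 8 falls lay between -0.89 (Lars) and -0.47 (Eprs, the enzyme for glutamate and proline). Xpot, the exporter of tRNA from the nucleus, fell too, from 1229.8 to 1569 to 809 to 894 (-0.68 ± 0.09, adjusted p = 0.00379). Among 16 eIF2 kinases, subunits and phosphatases, Eif2s2, the beta subunit of eIF2, was the only call (-0.50 ± 0.08, adjusted p = 0.00887), with 1257, 1449 and 1272 in the knockout and 915, 968 and 933 in the double. Taking the 4 lists of regulators, synthesis, transport and cytosolic synthetases as one, 25 of 72 tested members fell, Chac1 included, and 0 rose, where 0.432% of all genes were called lower. The lists were chosen with earlier results of these data known, so this share is a description. Chac1 reached the filter only through the knockouts and so had to differ. The 25 became 16 without double 1 and 11 without double 3, and lay between 20 and 24 when any other of the 6 libraries was left out.

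**Figure D3:**
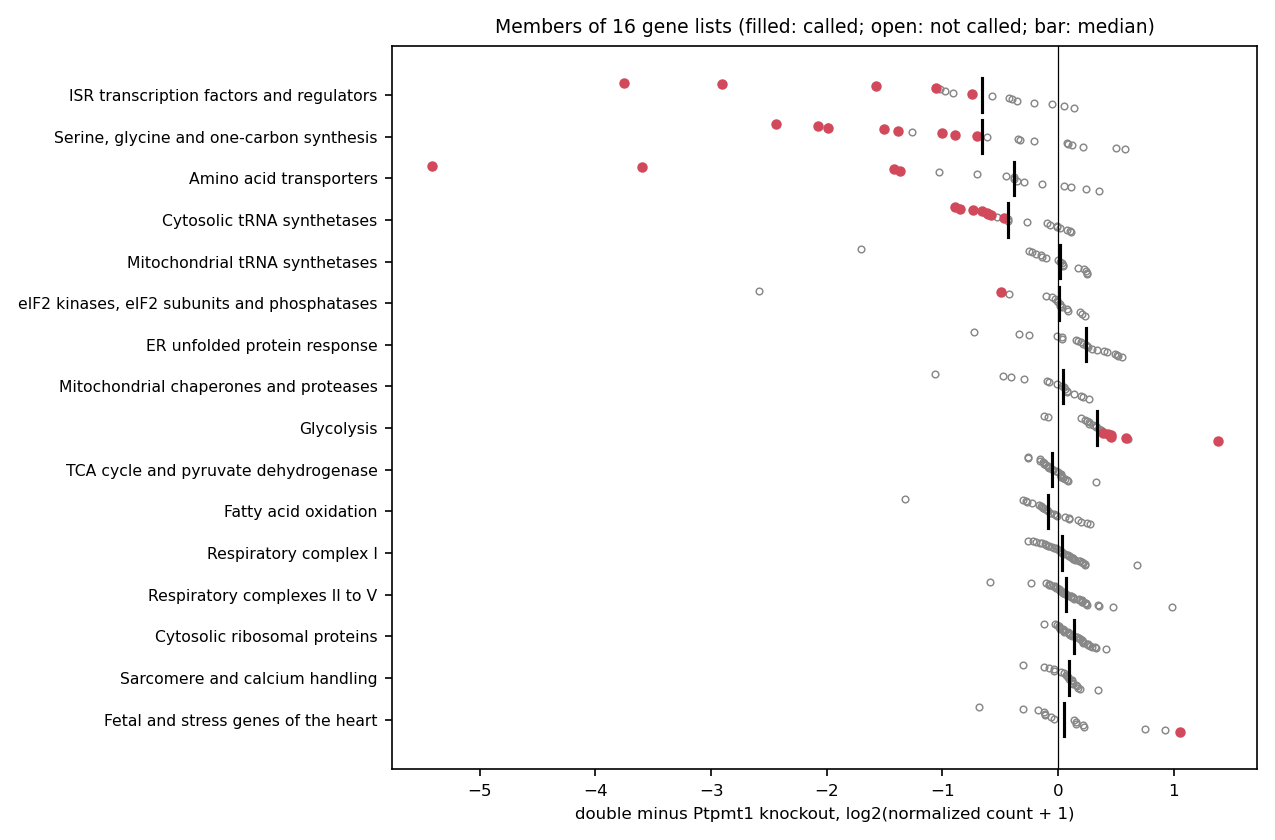
Each point is a tested member of one of 16 gene lists, placed by its double minus Ptpmt1 knockout difference in log2(normalized count + 1), with called members filled and the median of the list as a bar. The first 4 lists have medians from -0.66 to -0.38 and 25 called members below 0, glycolysis has a median of 0.34, and the respiratory lists have medians of 0.03 and 0.07.

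Chosen from these samples, 3 genes had reads in the knockouts and few or none in the other groups, and their values are given as a description, with no test. Trim66, a chromatin-binding protein known from the male germline, was at 58.9, 66.3 and 156 in the knockout and 2.33, 4.42 and 0 in the double (a difference of -5.03). In controls it was at 0 to 0.735. Cyb5r2, a cytochrome b5 reductase, had 69.2, 59.7 and 73.2 against 5.45, 0 and 5.85 (a difference of -4.27). Cntnap3, a neuronal adhesion protein, had 102 reads over the 3 knockouts and 0 over the 3 doubles, at least 20.6-fold lower when 3 reads over the group are taken as the floor.

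Among falls outside these lists, Fam129a, a known Atf4 target, dropped from 326 to 640.4 to 172 to 179 (-1.23 ± 0.20, adjusted p = 0.00887). Hjurp, a chaperone of the centromeric histone, went from 2811, 2997 and 2806 to 1609, 1803 and 1522 (-0.81 ± 0.13, adjusted p = 0.00887), with controls at 2178 to 2945. Ghitm, an inner mitochondrial membrane protein, and Phf10, a subunit of a chromatin remodelling complex, fell by similar amounts (-0.63 ± 0.12 and -0.70 ± 0.13, adjusted p = 0.0257 and 0.0155). These 4 were chosen after their values were seen. The largest fitted fall was that of Zfp990 (chr4:145510759-145539188), a zinc finger gene. It had 208, 122 and 48 in the knockouts and 0 reads in the 3 doubles against 466 in the knockouts, at least 94.3-fold lower. Its values scattered within the other groups as well, at 2.47, 0 and 33.8 in controls and 0, 61.9 and 81.8 with the Eif2a mutation alone, and its call was lost without double 2 (adjusted p = 0.115).

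The promoters of the falling genes were searched for the core of the C/EBP-ATF response element, the site at which Atf4 is known to bind with a C/EBP partner, because these genes moved together. The letters searched were TGATGNAA and, on the other strand, TTNCATCA, in RefSeq promoters of GRCm38.p6 that run from 250 bases before to 50 after the gene start. A promoter was found for 47 of the 60 falling genes, and 11 of these (23.4%) held the core. It was present in 1 of 48 rising genes with a promoter (2.08%), in 287 of 10626 tested genes (2.70%) and in 3.97% of all 32851 promoters of the table. Of the falling genes with a promoter, Chac1, Cntnap3, Cyb5r2 and Trim66 reached the filter only through the knockouts and so had to differ. Chac1 and Cyb5r2 are among those with the core, and the share without them was not computed. A match is a description of the letters, not a site shown to be bound. The 11 genes were Aars, Asns, Atf3, Chac1, Cyb5r2, Gars, Iars, Pck2, Slc1a4, Slc7a11 and Trib3, and stretches of 7 of them are printed along the gene, 5′ to 3′, to show the core (capitals) in its surroundings.
Asns: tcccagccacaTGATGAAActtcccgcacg
Chac1: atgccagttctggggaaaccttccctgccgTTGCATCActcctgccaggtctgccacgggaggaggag
Slc7a11: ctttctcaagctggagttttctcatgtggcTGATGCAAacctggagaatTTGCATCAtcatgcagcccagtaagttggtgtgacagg
Atf3: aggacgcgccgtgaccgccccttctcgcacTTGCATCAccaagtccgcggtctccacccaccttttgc
Pck2: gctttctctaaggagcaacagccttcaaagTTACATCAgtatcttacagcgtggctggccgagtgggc
Gars: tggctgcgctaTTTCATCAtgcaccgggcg
Trib3: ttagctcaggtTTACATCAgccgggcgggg
The stretches lie at chr6:7693214-7693243 for Asns (minus strand), chr2:119351019-119351086 for Chac1, chr3:50443623-50443709 for Slc7a11 (minus strand), chr1:191183406-191183473 for Atf3 (minus strand), chr14:55540133-55540200 for Pck2, chr6:55037960-55037989 for Gars and chr2:152344028-152344057 for Trib3 (minus strand). By the RefSeq starts of the promoter table, the cores of the first 6 lie before the gene start and that of Trib3 within the first bases of the transcript. GENCODE starts Asns further upstream, so that its stretch lies in the first exon there, and it has a longer Atf3 gene with the stretch between exons. It starts Trib3 further downstream, so that the core of Trib3 lies before the gene start there. Slc7a11 holds 2 cores in opposite orientation. In Asns the core reads along the gene, and in Chac1, Atf3, Pck2, Gars and Trib3 it reads on the other strand.

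Rises were mostly small in size, and the clearest was shared with the Eif2a mutant alone. Hjv (chr3:96525163-96529216), a co-receptor for bone morphogenetic proteins that sets iron balance and is made in muscle, was at 72.4, 78.6 and 80.8 in the knockout and 209, 212 and 194 in the double. Each group was tight and they did not overlap (1.40 ± 0.14, adjusted p = 0.000295). The Eif2a mutant without the knockout had 211, 252 and 217, and controls 91.3, 88.9 and 115, so Hjv was high wherever Eif2a was mutated. The same layout held for Slc2a3 (chr6:122727809-122801640), the glucose transporter Glut3, with 333, 294 and 327 in the knockout and 649, 742 and 596 in the double (1.05 ± 0.12, adjusted p = 0.000649). Its values were 745, 933 and 734 in the Eif2a mutant and 341, 376 and 309 in controls. Hjv is among the largest rises, while Slc2a3 was chosen after its values were seen.

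Mt2, a metallothionein that binds zinc and copper and was likewise chosen after its values were seen, had 5.57, 3.79 and 6.31 in the knockout and 36.6, 44.2 and 62.1 in the double (2.95 ± 0.37, adjusted p = 0.00137), with controls at 32.1, 41.6 and 21.3. The knockouts were the low group here, and the value of double 2 rests on 10 reads. Rnf17, known from the germline, was at 42.2, 30.3 and 29 and 162, 265 and 186 (2.55 ± 0.36, adjusted p = 0.00379), and the doubles were higher than all but 1 library of the other groups. Of 5 tested germline genes in the list none passed limma's test, 1 had an unadjusted p under 0.05 and none passed edgeR. Akr1e1, an aldo-keto reductase, had 25.5, 59.7 and 50.5 in the knockout and 254, 247 and 258 in the double (2.54 ± 0.50, adjusted p = 0.0259), but controls (255, 272 and 83.8) and Eif2a mutants (249, 102 and 48.3) each spanned low and high values. Without double 2 its adjusted p was 0.0986. The rest of the 10 largest rises were Tnfrsf1b, a receptor for tumour necrosis factor, Lmtk3, a kinase, Aldoc, Ush1c, a scaffold protein, Gipr, the receptor of a gut hormone, Ftcd, a folate enzyme, and Mycbpap, with differences from 1.24 (Ftcd) to 1.54 (Tnfrsf1b).

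Of 20 tested glycolytic enzymes, 6 rose (Aldoc, Ldha, Pfkl, Pfkp, Pgk1 and Pkm), none fell, 15 had an unadjusted p under 0.05, all of them higher, and the median was 0.34. Ldha, which turns pyruvate into lactate, was at 8114, 8096 and 8004 in the knockout and 11191, 11076 and 10937 in the double. Both groups were narrow and apart, the difference was 0.46 ± 0.07 (adjusted p = 0.00887), and the Eif2a mutants (10703 to 11561) were also above the controls (8931 to 9863). Pgk1, which makes ATP in glycolysis, went from 1737, 1852 and 1687 to 2333, 2188 and 2369.9 (0.39 ± 0.08, adjusted p = 0.0259). It lies on the X chromosome, and with a term for the male or female pattern its adjusted p was 0.0761. Pkm, Pfkl and Pfkp, which lie on other chromosomes, lost their calls with that term too (limma's adjusted p = 0.0953, 0.0974 and 0.0673). Aldoc, an aldolase of low level in these cells, had 43, 26.5 and 35.3 and 86.4, 79.6 and 109 (1.38 ± 0.27, adjusted p = 0.0259). The lactate exporter Slc16a3, chosen after its values were seen, went the same way, from 835 to 1067 to 1239 to 1592 (0.65 ± 0.12, adjusted p = 0.0183). With a term for the male or female pattern the adjusted p of Slc16a3 was 0.0618. The count depended on the libraries, with 0 called members without double 3, 1 without double 1, 1 without double 2, 2 without Ptpmt1 knockout 1, 2 without Ptpmt1 knockout 2, 2 with a term for the male or female pattern and 10 without Ptpmt1 knockout 3. Reads of near-identical pseudogenes of Ldha, Pgk1 and Pkm could not be told apart, since the sources used here do not state how reads were counted. The hypoxia response core ACGTG, searched on both strands, was in 18 of 48 promoters of rising genes (37.5%), 14 of 47 of falling genes (29.8%) and 29.1% of those of tested genes.

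Among the other rises, named after their values were seen and with no list behind them, were some genes of vessels and muscle. Col4a2 and Col4a1, the chains of basement membrane collagen, rose by 0.47 ± 0.08 and 0.44 ± 0.09 (adjusted p = 0.00887 and 0.027), Col4a2 from 4808, 4784 and 4332 in the knockout to 6327, 6665 and 6313 in the double. Eng, a co-receptor for growth factors on endothelial cells, had 1359.5, 1600.2 and 1489.7 and 2086, 2148 and 2039.7 (0.50 ± 0.08, adjusted p = 0.00887), which put the doubles above every control (1439 to 1659.5). Hspg2, which encodes perlecan, and the receptors Notch1 and Notch4 rose by 0.43, 0.43 and 0.52. Mean levels in controls, knockouts and doubles were 5784, 4641 and 6435 for Col4a2 and 9364, 7774 and 10544 for Col4a1. For Hspg2 they were 11626, 9226 and 12421, so that in each of these genes the knockouts were the low group. Endothelial markers took 0.120% to 0.131% of normalized counts in the knockout and 0.123% to 0.125% in the double, and none of 9 was called. In the extracellular matrix list none of 17 was called and the median was -0.14. Mural markers took 0.108% to 0.183% in the knockout and 0.179% to 0.220% in the double, with 5 of 7 tested members above 0, a median of 0.40 and 0 called by limma (4 with an unadjusted p under 0.05, 0 by edgeR). Without Ptpmt1 knockout 2, 2 mural markers were called higher. Fibroblast markers had 8 of 8 below 0, a median of -0.50 and 0 called (4 with an unadjusted p under 0.05, 0 by edgeR). Without double 1, 1 fibroblast marker was called lower. The sums of the fibroblast markers overlapped, at 0.148% to 0.291% in the knockout and 0.124% to 0.167% in the double. Only Ptpmt1 knockout 3 was high, and without it the median was -0.25. Among the 6 libraries it was also highest for macrophage and erythroid markers, at 0.0094% and 0.223%. The part of endothelial, mural and fibroblast cells in the rises of Col4a1, Col4a2 and Eng was not tested. In bulk samples fewer cells of a type and less RNA per cell cannot be told apart.

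Mybphl, a myosin-binding protein of the atria and conduction system, was at 97.1, 119 and 72.6 in the knockout and 217, 177 and 198 in the double (1.05 ± 0.19, adjusted p = 0.0155), and the doubles stood near the Eif2a mutants (198, 187 and 195). It was the only call among 16 fetal and stress genes of the heart. Speg, a large kinase of the muscle cell, Myh7b, a myosin heavy chain, and Srl, a calcium-binding protein of the sarcoplasmic reticulum, rose by 0.46, 0.45 and 0.45. These and the vascular genes were chosen after their values were seen, and among them only Col4a2 and Eng kept an adjusted p under 0.05 without double 2. Speg had 1539, 1400.3 and 1432 in the knockout, 1962, 1998 and 2062 in the double and 1938, 1919.97 and 2116 in controls, so that the knockouts were the low group. In the list of sarcomere and calcium handling genes 0 of 20 passed limma's test, 1 had an unadjusted p under 0.05 and 0 passed edgeR. The cardiac stress genes Nppa and Nppb differed by -0.12 and 0.22, and the myosin genes Myh6 and Myh7 by -0.03 and 0.15, all without a call. Cox6a2, a cytochrome oxidase subunit of heart and muscle, was at 181, 175 and 659 in the knockout, where only replicate 3 was high, and 231, 155 and 171 in the double (-0.59 ± 0.35, adjusted p = 0.477).

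**Figure D4:**
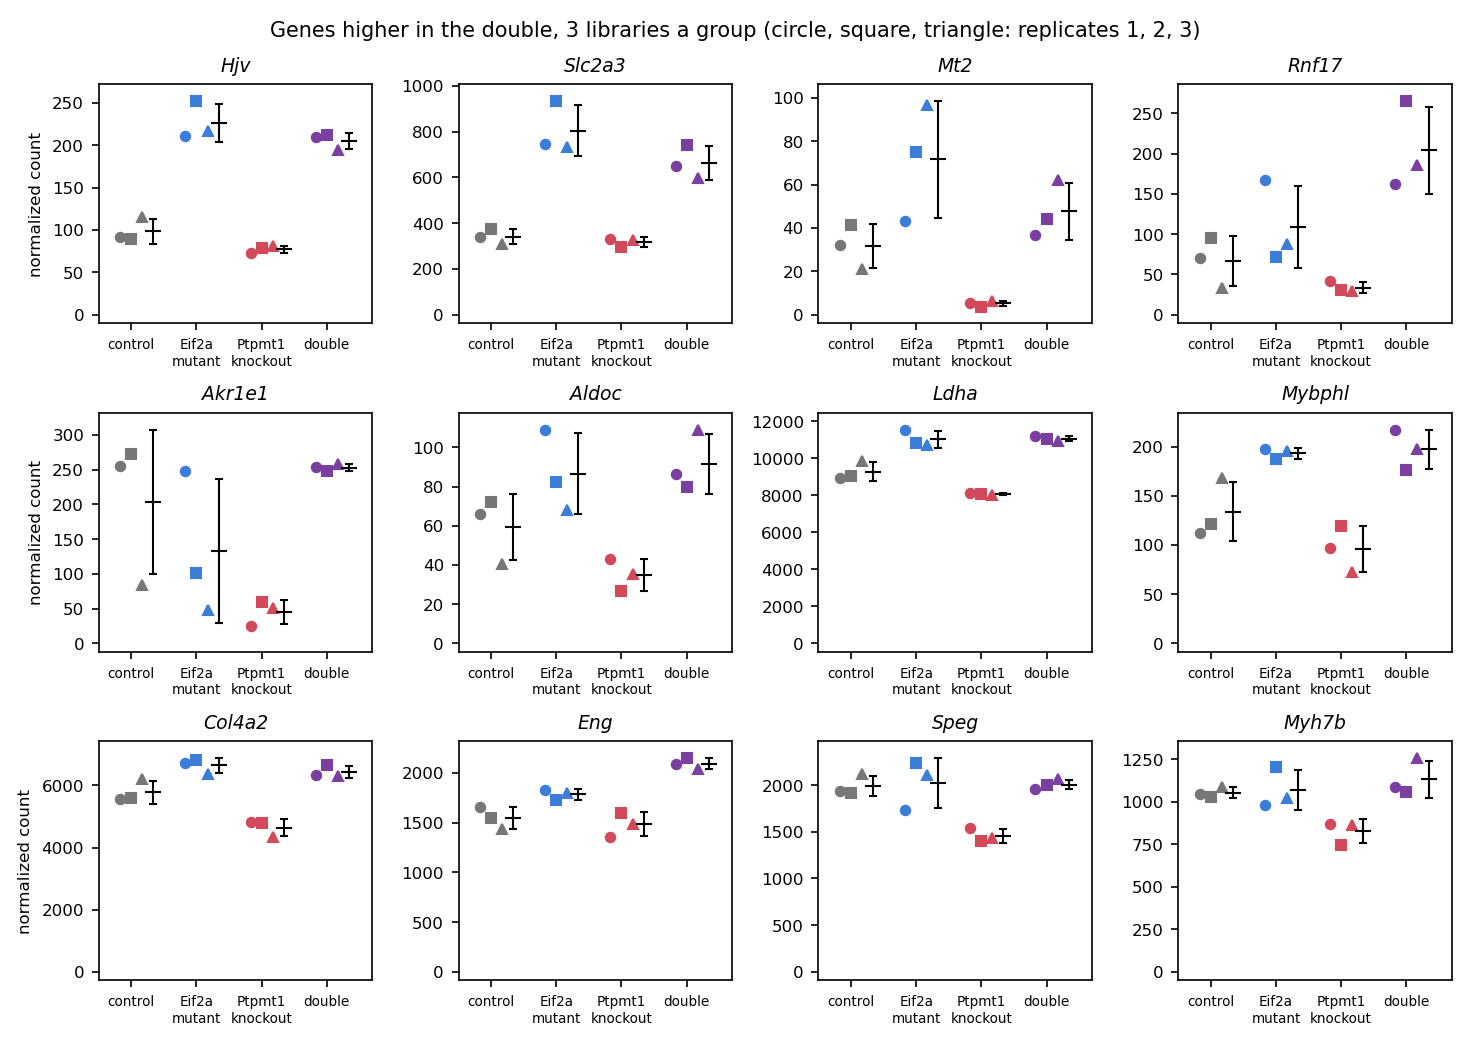
Normalized counts (vertical axes, from 0) of 12 rising genes in the 12 FST libraries, with circles, squares and triangles for replicates 1, 2 and 3 and bars for the group mean ± SD (n = 3). The 3 doubles lie above the 3 Ptpmt1 knockouts in each panel, as for every called rise. For Hjv and Slc2a3 the Eif2a mutants (211 to 252 and 734 to 933) are as high as the doubles.

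The lists of mitochondrial respiration, metabolism and protein folding had no called members, beside 13.8% of all genes tested at an unadjusted p under 0.05. In respiratory complex I, 0 of 36 tested genes passed limma's test (4 with an unadjusted p under 0.05, 0 by edgeR, median 0.03), and in complexes II to V 0 of 42 did (7 unadjusted, 0 by edgeR, median 0.07). The citric acid cycle had 0 of 24 (2 unadjusted, 0 by edgeR), fatty acid oxidation 0 of 23 (2 unadjusted, 0 by edgeR) and cardiolipin synthesis 0 of 14 (4 unadjusted, 0 by edgeR). Mitochondrial chaperones and proteases had 0 of 16 (4 unadjusted, 0 by edgeR, median 0.04). Without Ptpmt1 knockout 3, 5 genes of complexes II to V, 1 of complex I and 1 of cardiolipin synthesis were called higher and 1 chaperone or protease lower. In the unfolded protein response of the endoplasmic reticulum, a pathway with its own eIF2 kinase, 0 of 21 were called, 9 were higher and 2 lower at an unadjusted p under 0.05, 0 passed edgeR, and the median was 0.24. Ribosomal proteins of the cytosol had 0 of 36 (9 unadjusted, all higher, 0 by edgeR), and 33 of the 36 were above 0 with a median of 0.14. Not reaching the threshold with 3 libraries a group does not show that these genes were equal.

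Whether the Eif2a mutation acted differently with and without Ptpmt1 was tested as the difference between its effect on the knockout and its effect on controls. This passed limma's test for 3 of 13896 genes (0.0216%), all stress response genes, while 981 had an unadjusted p under 0.05. With a term for the male or female pattern 2 genes passed. All 3 Eif2a mutants but only 1 control had the male pattern. For Trib3 the difference of effects was -4.63 ± 0.48 (adjusted p = 0.000525), since the mutation went with -2.91 in the knockout and 1.73 in controls. For Asns it was -2.09 ± 0.22 (adjusted p = 0.000525), from -2.07 in the knockout and 0.02 in controls. For Mthfd2 it was -1.84 ± 0.25 (adjusted p = 0.00835), from -1.99 and -0.15. Xpot came next and did not pass (-0.83 ± 0.13, adjusted p = 0.0503). Hjv and Slc2a3 had small values instead, 0.20 ± 0.20 and -0.17 ± 0.17 (adjusted p = 0.836 and 0.828).

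The 122 genes were then looked up in comparisons of other libraries. In the Eif2a mutant against control, where 5 genes of 13896 (0.036%) were called, 54 of the 62 rises were positive too (87.1%, against 48.1% of all tested genes), with a median of 0.21. Hjv and Slc2a3 were called there (1.20 ± 0.14, adjusted p = 0.00329, and 1.23 ± 0.12, adjusted p = 0.000344), and 28 of the 62 had an unadjusted p under 0.05, against 7.97% of all genes. Of the 60 falls 32 were negative (53.3%, against 51.9% of all), with a median of -0.03 and 0 called by limma, 10 of them at an unadjusted p under 0.05. Both comparisons were fitted together and share the estimate of the spread, which the 122 were chosen on, so these calls are not independent of the choice. With the 3 mutants and 3 controls fitted alone, an alternative chosen after seeing the data, Hjv (adjusted p = 0.0485) and Slc2a3 (adjusted p = 0.00912) were called and 30 of the 62 rises had an unadjusted p under 0.05, against 9.08% of all genes in that fit. All 3 mutants but only 1 of the 3 controls had the male pattern, so sex and mutation cannot be fully told apart there. Genes are not independent of each other, and these shares are a description.

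The PHT line, in which the Ptpmt1 knockout was combined with a knockout of the eIF2 kinase Hri instead, was looked up in the same way. There, 2 doubles were compared with 3 Ptpmt1 knockouts in a separate table, and 49 of 14965 genes (0.327%) were called. Of the 60 falls 46 were negative in it (76.7%, against 51.1% of all), with a median of -0.48, and 27 were called. Of the 62 rises 25 were positive (40.3%, against 48.9% of all), with a median of -0.02 and 0 called. In the same PHT comparison 5 sex-linked genes had a median difference of 5.78 with 0 called. The 9 erythroid markers had one of 1.78 with 1 called higher. The part of sex and of blood content in the PHT differences was not tested. Asns showed 1121, 1341 and 1638 in the 3 PHT knockouts and 223 and 310.5 in the 2 Hri doubles, a difference of -2.36 (adjusted p = 1.42e-05), beside -2.07 with the Eif2a mutation. Chac1 differed by -6.83 in PHT and -3.76 in FST, and Slc7a3 by -5.14 and -5.42. Hjv, in contrast, was at 189, 179.8 and 120.05 in the PHT knockouts and 141 and 156 in the Hri doubles (-0.11, adjusted p = 0.923), and Slc2a3 differed by -0.04 (adjusted p = 0.956). Differences between both lines were not tested, since the tables were normalized apart.

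**Figure D5:**
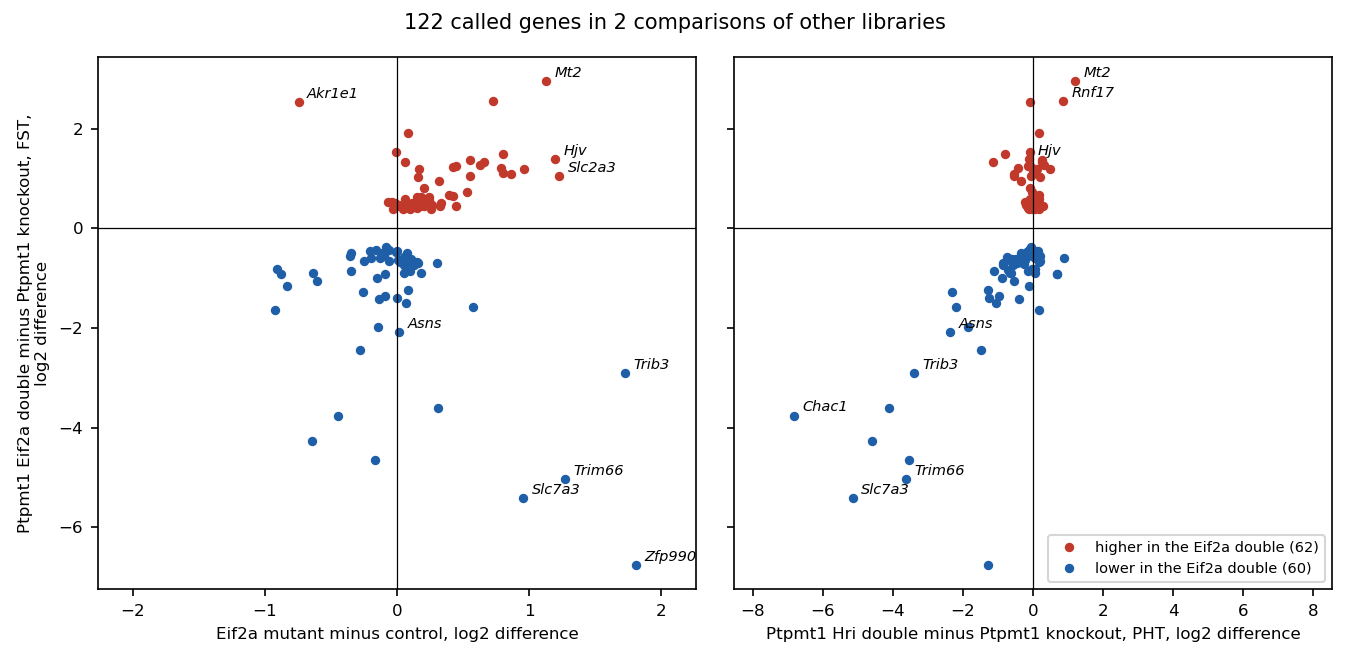
The 122 called genes by their double minus Ptpmt1 knockout difference in FST (vertical axes) against 2 comparisons of other libraries (horizontal axes), all in log2(normalized count + 1), red for rises and blue for falls. Left, Eif2a mutant minus control, where 54 of 62 rises are to the right of 0. Right, Ptpmt1 Hri double minus Ptpmt1 knockout in PHT, where 46 of 60 falls are to the left.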

How the data were processed

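RNA of cardiomyocytes was sequenced, and the authors deposited a normalized signal per gene and library, in 1 table per line. STAR 2.5.3a and DESeq2 1.12.4 on mm10 are named in the submitters' processing notes, without roles. Of the read counter, the annotation and any use of strand, the sources used here say nothing. Every FST column of the deposited signal held whole multiples of 1 step, so dividing by it gave whole reads (tolerance 0.1) for 100% of values. These gave the depths and fed the count tests. Of 32245 genes, 26 carried date-like symbols, and 0 value columns of FST and PHT lacked a sample. The table of the PTGC line was not used here.

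All 12 FST libraries were fitted with limma 3.58.1 (R 4.3.3, intensity trend, two-sided) on log2(value + 1), over 13896 genes reaching 10 in at least 3 libraries. Benjamini-Hochberg adjusted p under 0.05 is a call, and adjusted p-values are limma's unless another tool is named. This scale understates changes of low genes. Pairing was not possible, since the numbers in the titles do not recur. PHT (9 libraries) was fitted likewise, over 14965 genes reaching 10 in at least 2. The fits were tested on simulated data. Alternatives used edgeR 4.0.16 and DESeq2 1.42.0 on recovered reads, other scales, filters and scalings, a term for the sex pattern, and left-out libraries. Named genes were a fixed panel, the 10 largest changes each way with a mean of at least 50 and up to 3 members a list by p. Called list members beyond these were named after their values were seen. Members, lists and this rule were chosen with earlier results of these data known. Floors of 3 reads cover counting error only. Gene positions are from GENCODE M21 (GRCm38), for Hjv from RefSeq.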

Additional observations from a re-analysis of the deposited data

Results flagged for a closer look

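The effect of the Eif2a mutation differed with and without the Ptpmt1 knockout for 3 genes, by limma's interaction term over all 12 FST libraries. With a term for the sex pattern added, 2 genes passed. Trib3 had a difference of effects of -4.63 (adjusted p = 0.000525), Asns of -2.09 (adjusted p = 0.000525) and Mthfd2 of -1.84 (adjusted p = 0.00835), on the log2(normalized count + 1) scale. In each of the 3 genes all doubles lay below all Ptpmt1 knockouts. For Trib3 the mutants without the knockout (69.8, 39.1 and 45.1) lay above the controls (14.8, 15 and 13.2), so both directions enter its value, while for Asns and Mthfd2 mutants and controls overlapped.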

How the results depend on the processing

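All 122 called genes kept their sign under every alternative in which they were tested. Of the named genes, 13 of 36 falls and 6 of 29 rises stayed called under all of theirs. The 36 hold Chac1, Cntnap3, Cyb5r2 and Trim66, and the 13 hold Trim66. These reached the filter only through the knockouts, so their calls are no sign of stability. The count of calls was 66 (32 higher and 34 lower) with only the 2 groups fitted, 58 (27 and 31) with a term for the sex pattern, 1637 (849 and 788) with array weights and 308 (167 and 141) with DESeq2. edgeR gave 125, of which 112 were among the 122. Leaving out 1 knockout or double library gave 29 to 327 calls, 14 to 184 higher and 15 to 143 lower. In alternatives chosen after seeing the data, leaving out Eif2a mutant 1 gave 120 higher and 100 lower. The difference of effects had 3 calls, and 2 with a term for the sex pattern. It had 6 with log2(value + 4) or no filter, 324 with array weights, 5 with edgeR and 32 with DESeq2. Without double 2 and Eif2a mutant 1 it had 9, and with 1 library left out 3 to 35, the most without Ptpmt1 knockout 3. In PHT the count was 29 to 91 with 1 library left out, and edgeR on PHT was not run because whole reads could not be recovered for every column. The cause of these changes was not tested.

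The 15 named genes that were not called gained a call in 14 of 270 instances and changed sign in 14. With 1 library left out, Eif2s1 ranged from -0.044 to 0.20, Ddit4 from -0.18 to 0.34, Nppa from -0.30 to 0.20, Nppb from -0.020 to 0.52, Myh6 from -0.20 to 0.059 and Cox6a2 from -0.92 to 0.036. Ddit4 was at -0.026 with the sex term, Nppa at 0.077 with array weights, and Nppb at -0.020 without both double 2 and Eif2a mutant 1. No paired analysis was possible because the titles give each library a number that does not recur. Depth limits double 2, where 3 reads amount to 13.3 normalized counts.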
